A study of Mus musculus with 6 samples.

Results

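The genes described here are 9 transcription factors that set and hold macrophage identity, taken as the entries of the deposited tables with the symbols Spi1, Irf8, Cebpa, Cebpb, Maf, Klf4, Zeb2, Tfec and Mitf, that is 9 of the 23935 gene symbols measured. They were followed in bone marrow-derived macrophages (BMDMs), which are macrophages grown from marrow in the presence of the growth factor M-CSF, from PKM2ΔMAC and PKM2FL/FL mice. PKM2FL/FL mice carry a floxed allele of Pkm, the gene of the glycolytic enzyme pyruvate kinase M, and served as controls. In PKM2ΔMAC mice this allele is combined with LysM-Cre, which is driven from the Lyz2 locus and is active in macrophages, monocytes and neutrophils. Every culture of both genotypes was grown for 7 days in M-CSF and, per the labels, was then primed over 16 h by LPS (10 ng/mL) together with IFN-γ (25 ng/mL). There were 3 libraries per genotype, numbered by mouse in the titles, and the study's methods name male mice as BMDM donors for flow cytometry but do not state the age and sex of the donors for these libraries. The comparison asks whether loss of PKM2 in the myeloid lineage went with a change in the factors that define that lineage. P-values measure the spread between these libraries.

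PU.1, encoded by Spi1, is the ETS factor without which macrophages do not form, and it opens enhancers at which the other factors bind. IRF8 directs progenitors to monocytes and away from neutrophils, C/EBPα and C/EBPβ act earlier and later in the myeloid path, and c-MAF, KLF4 and ZEB2 act in maturing monocytes and macrophages. MITF and TFEC belong to the MiT family of helix-loop-helix factors, whose members pair with each other and bind E-boxes in genes of lysosomes and osteoclasts, TFEC being the member whose expression is most restricted to macrophages.

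Libraries held between 49957449 and 54524651 counts. The genotype labels were checked on Pkm and on Lyz2. Pkm was at 1714, 1698 and 1705 CPM (counts scaled to the size of the library) in PKM2FL/FL libraries 1 to 3 and at 987, 1212 and 1005 CPM in PKM2ΔMAC libraries 1 to 3, without overlap (log2 fold change -0.68, edgeR quasi-likelihood test, Benjamini-Hochberg adjusted p = 0.00913). Counts per gene do not separate the PKM2 transcript from the PKM1 transcript of the same gene. Lyz2 averaged 17825 CPM in the controls and 28.4 CPM where Cre was carried. The library PKM2ΔMAC 2 stood apart from the other two of its genotype: the chi-square of counts per degree of freedom was 43.1 and 53.8 for the pairs that include it, 10.1 for the remaining PKM2ΔMAC pair and between 7.55 and 13.7 for the PKM2FL/FL pairs. Results are therefore given with and without it where it decides them. The macrophage label was met by Adgre1 (1792 to 2635 TPM, a share of all transcripts corrected for their length), Csf1r (1825 to 2482 TPM) and Cd68 (2174 to 2840 TPM). Of the 10 macrophage markers, 3 had a positive and 7 a negative fold change (median -0.06). Among them edgeR called Itgam as higher and Lyz2, which carries the Cre, as lower, against 0.412% of all genes called in either direction. Adgre1, the gene of F4/80, was higher in every PKM2ΔMAC library (1792 to 1891 against 2095 to 2635 TPM, log2 fold change 0.26 on counts), which passed the test in DESeq2 and in edgeR without PKM2ΔMAC 2 but not in edgeR with all libraries (adjusted p = 0.236). Of 17 genes known to respond to LPS and IFN-γ, 3 stayed under 1 TPM in all 6 libraries, namely Nos2 (at most 0.401 TPM), Il6 (at most 0.515 TPM) and Il12b (at most 0.198 TPM), and Cxcl9 lay between 0.499 and 1.15 TPM. These levels are low for cultures labelled as primed, and with no unprimed library in the series the response itself could not be measured. Irf1 was at 47.8 to 52.6 TPM. Between genotypes edgeR called 0 of the 16 response genes kept, with 9 positive and 7 negative fold changes, and DESeq2 called 0. There was 1 gene at an unadjusted p under 0.05, Acod1 (log2 fold change -0.75), against 9.83% of all genes. In CPM, 1 response gene was higher in PKM2ΔMAC without overlap, Tnf (log2 fold change 0.38), against 8.92% of all genes. Lower without overlap were 2, Acod1 and Gbp5, against 8.32%. Without PKM2ΔMAC 2 edgeR called 2 as lower, Acod1 and Ciita, of 299 genes in all. With all 6 libraries the log2 fold change of Ciita was 0.03.

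Promoters are shown for Irf8, Zeb2 and Tfec, since these were the 3 members whose genotypes did not overlap in CPM, and they were searched for sites of other members and of the IFN-γ pathway. The sequences are RefSeq's for GRCm38.p6, from 250 bases before to 50 bases after an annotated start. Capitals mark matches, on either strand, to 5 motifs: the GAS element of the IFN-γ pathway (TTCNNNGAA), the PU box (GAGGAA), the C/EBP palindrome (TTGCGCAA), the E-box of the MiT factors (CACGTG) and the IRF element (AANNGAAA). The Irf8 window is chr8:120736108-120736407 on the + strand, the Zeb2 window chr2:45117393-45117692 and the Tfec window chr6:16898392-16898691, both on the - strand.

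Irf8: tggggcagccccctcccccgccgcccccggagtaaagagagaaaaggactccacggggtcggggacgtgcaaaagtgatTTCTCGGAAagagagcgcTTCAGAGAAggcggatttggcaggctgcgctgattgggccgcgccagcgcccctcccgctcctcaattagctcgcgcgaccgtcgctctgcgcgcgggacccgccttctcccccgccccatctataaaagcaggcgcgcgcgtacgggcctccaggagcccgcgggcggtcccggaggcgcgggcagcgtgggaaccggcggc

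Zeb2: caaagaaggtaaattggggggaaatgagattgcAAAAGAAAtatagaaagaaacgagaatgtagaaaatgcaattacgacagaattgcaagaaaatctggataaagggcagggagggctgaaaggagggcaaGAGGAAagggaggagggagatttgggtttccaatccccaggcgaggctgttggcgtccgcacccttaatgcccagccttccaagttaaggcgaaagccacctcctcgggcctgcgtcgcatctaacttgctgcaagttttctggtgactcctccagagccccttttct

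Tfec: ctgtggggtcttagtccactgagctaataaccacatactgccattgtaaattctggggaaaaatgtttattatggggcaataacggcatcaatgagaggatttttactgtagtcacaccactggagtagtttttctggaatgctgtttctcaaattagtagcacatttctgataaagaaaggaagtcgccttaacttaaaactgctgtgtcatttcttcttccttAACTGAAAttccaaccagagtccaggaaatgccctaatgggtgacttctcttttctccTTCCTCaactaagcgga

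The Irf8 window, 1 of 2 for that gene, held 2 GAS elements, which begin at positions -171 and -153 from the start, and has a GC content of 70%, while the other Irf8 window held no match. A GAS element was found in 8.30% of the 32851 promoters of this length in the table. The Zeb2 window, 1 of 4 for that gene, held a PU box at position -118 and an IRF element at position -217. The Tfec window, the only one for that gene, held an IRF element at position -25 and a PU box on the opposite strand at position 34, past the start. PU boxes were found in 28.3% and IRF elements in 23.9% of promoters, so neither match is rare. Of the 7 members with an entry (13 windows), Irf8 and Zeb2 had a GAS element, Zeb2 and Tfec a PU box and an IRF element, the GAS elements of Zeb2 being in windows not shown, and Klf4 an E-box at position -182, a motif held by 7.15% of promoters. The C/EBP palindrome, found in 0.183% of promoters, was in 0 of the 13 windows. These matches describe letters in the window and are not measured binding.

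On a per-length scale the 9 factors spanned from the highest to the middle part of the range of expressed genes. Mean TPM over the 6 libraries was 472 for Spi1, 400 for Cebpa, 229 for Cebpb, 214 for Maf, 115 for Irf8, 95.2 for Zeb2, 62.6 for Mitf, 26.9 for Klf4 and 9.61 for Tfec. Spi1 thus stood at percentile 98.4 and Tfec at percentile 45.0 of the 16516 genes kept by the filter on low counts. Neighbours in this order did not overlap over the 6 libraries, with the exception of Cebpb (220 to 244 TPM) and Maf (199 to 242 TPM). The level of Spi1 was 1.18 times that of Cebpa, and the largest step between neighbours was the 2.80-fold one from Klf4 to Tfec. The order holds for TPM alone: by CPM, which counts more reads for longer transcripts, Zeb2 was first and Maf second, and 3 of the 9 members kept their place. The summed TPM of the 9 factors was 1575 to 1611 in PKM2FL/FL and 1625 to 1701 in PKM2ΔMAC. TPM is a share of all transcripts, and Lyz2 alone took 4.48% to 4.96% of it in PKM2FL/FL, so that the median gene was 0.069 higher in PKM2ΔMAC on the log2 TPM scale. Genotypes were for this reason compared on counts, with libraries scaled by TMM factors.

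**Figure D1:**
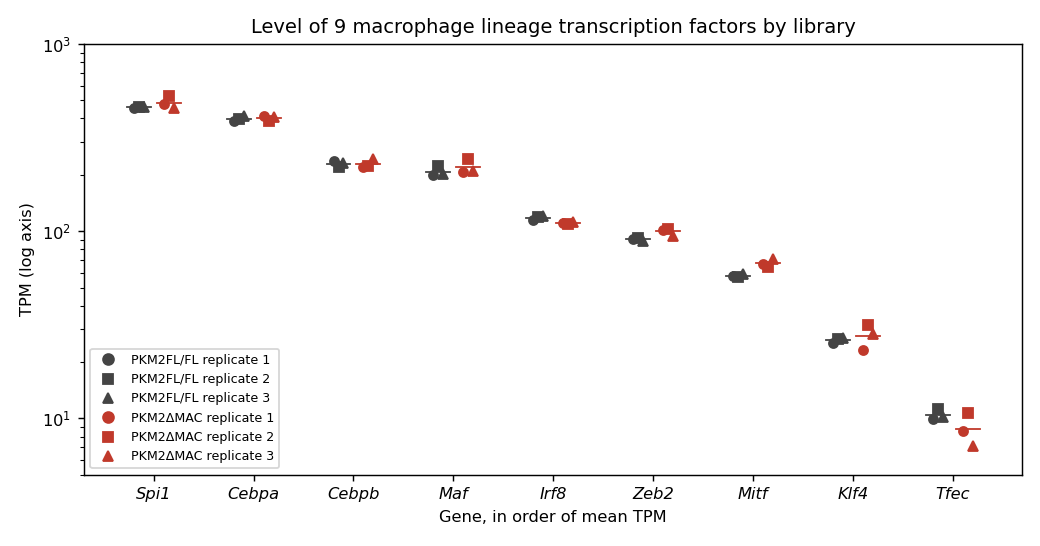
TPM (log axis) of the 9 factors in each library, grey for PKM2FL/FL and red for PKM2ΔMAC, with symbols for the replicate number and a bar for the mean of each genotype (n = 3). Genes are ordered by mean TPM, from Spi1 at 472 to Tfec at 9.61, and neighbouring genes overlap over the libraries only for Cebpb and Maf.

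None of the 9 factors passed the test between genotypes. All 9 passed the filter on low counts, and 0 had an adjusted p under 0.05 in the edgeR quasi-likelihood test, against 68 of 16516 genes (0.412%), 47 of them with a positive and 21 with a negative fold change. DESeq2 called 0 of the 9 as well. At an unadjusted p under 0.05 there were 3 members in edgeR (Irf8, Tfec and Mitf), against 9.83% of all genes, and 2 in DESeq2 (Irf8 and Tfec). The fold change was positive for 5 members and negative for 4, with a median of 0.0007 on the log2 scale against -0.0002 for all genes. The median standard error of the members was 0.057, that of genes with at least 10 CPM was 0.061, and the largest fold change of a member in either direction was -0.33. In CPM, 1 member was higher in every PKM2ΔMAC library than in any PKM2FL/FL library (Zeb2, against 8.92% of all genes) and 2 were lower (Irf8 and Tfec, against 8.32%). In TPM, which is shifted as described above, 2 members were higher without overlap (Zeb2 and Mitf, against 19% of all genes) and 1 lower (Irf8, against 3.15%). In bulk RNA, fewer cells of a type and less RNA per cell cannot be told apart.

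**Figure D2:**
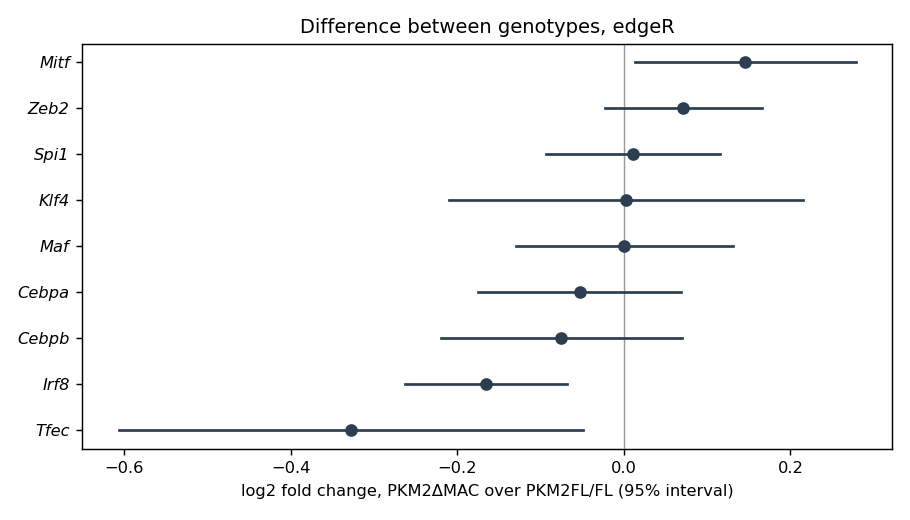
Log2 fold change of each factor, PKM2ΔMAC over PKM2FL/FL, from edgeR, with its 95% interval (n = 3 per genotype). The intervals of Irf8, Tfec and Mitf leave out 0 before adjustment over all genes, and that of Tfec is the widest, from -0.61 to -0.05.

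Spi1 (chr2:91082390-91115756, + strand, GENCODE M21 on GRCm38, as for all positions of genes here) was level between genotypes. It measured 353, 349 and 356 CPM in PKM2FL/FL libraries 1 to 3 and 354, 374 and 339 CPM in PKM2ΔMAC libraries 1 to 3. The PKM2ΔMAC libraries held both the lowest and the highest value, so the genotypes overlapped fully. The log2 fold change was 0.01 (SE 0.05, 95% interval -0.09 to 0.12, adjusted p = 0.966 in edgeR). Among the PU.1 family Spi1 supplied 99.1% to 99.7% of the TPM, the remainder coming from Spib and Spic.

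Irf8 (chr8:120736358-120756694, + strand) was the member with the smallest unadjusted p. It measured 234, 238 and 243 CPM in PKM2FL/FL and 216, 203 and 219 CPM in PKM2ΔMAC libraries 1 to 3. Every PKM2ΔMAC library lay below every PKM2FL/FL library, and PKM2ΔMAC 2 was the lowest. By the edgeR fold change, Irf8 in PKM2ΔMAC was at 89.2% of its control level (log2 fold change -0.17, SE 0.04, 95% interval -0.26 to -0.07). The unadjusted p was 0.00416 and the adjusted p 0.232 in edgeR. The 2-sided exact permutation test gave p = 0.10, the smallest possible with 3 against 3. Irf8 made up 19.6%, 20.2% and 21.1% of the TPM of the 9 IRF genes in PKM2FL/FL and 18.0%, 16.3% and 19.9% in PKM2ΔMAC, which overlap. Irf5 led the family at 42.8% to 44.9%.

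Neither gene of the C/EBP pair passed the test. Cebpa (chr7:35119293-35121928, + strand) measured 293, 294 and 312 CPM in PKM2FL/FL and 299, 268 and 300 CPM in PKM2ΔMAC libraries 1 to 3 (log2 fold change -0.05, SE 0.05, adjusted p = 0.810 in edgeR). Cebpb (chr2:167688915-167690418, + strand), the form linked to inflammatory activation, measured 103, 93.4 and 99.4 CPM in PKM2FL/FL and 91.2, 87.4 and 102 CPM in PKM2ΔMAC libraries 1 to 3 (log2 fold change -0.07, SE 0.06, adjusted p = 0.767 in edgeR). Both genes overlapped between genotypes, and PKM2ΔMAC 2 held the lowest value of each. Without PKM2ΔMAC 2 the log2 fold changes were -0.001 and -0.03, and without PKM2ΔMAC 3 they were -0.08 and -0.14. Cebpa supplied 52.1% to 55.5% and Cebpb 29.7% to 32.9% of the TPM of the 5 C/EBP genes, and their ratio was 1.74 ± 0.094 in PKM2FL/FL and 1.76 ± 0.097 in PKM2ΔMAC (SD, n = 3). Exons of Tmem189, a gene on the other strand with 5983 to 7196 counts, overlap Cebpb, and since the strand setting of the counting is not given in the sources used here, reads of the overlapping part cannot be told apart. The same holds for Gm45091 over Cebpa (10 to 27 counts) and Zeb2os over Zeb2 (90 to 118 counts).

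Maf, Klf4 and Zeb2 are the factors of maturation. Maf (chr8:115682942-115707794, - strand), the gene of c-MAF, measured 472, 520 and 477 CPM in PKM2FL/FL and 469, 522 and 480 CPM in PKM2ΔMAC libraries 1 to 3. Library 2 was the highest of each genotype, and the means were both 490 CPM (log2 fold change 0.0007, 95% interval -0.13 to 0.13, adjusted p = 0.999 in edgeR). Klf4 (chr4:55527143-55532466, - strand) measured 22.2, 23.0 and 23.4 CPM in PKM2FL/FL and 19.5, 25.2 and 23.9 CPM in PKM2ΔMAC libraries 1 to 3. Its PKM2ΔMAC values surrounded the PKM2FL/FL values, with a coefficient of variation of 12.9% against 2.73% (log2 fold change 0.003, adjusted p = 0.996 in edgeR). Klf4 was a small part of its family, at 4.06% to 5.12% of the TPM of 13 KLF genes. Zeb2 (chr2:44983632-45117395, - strand) measured 528, 523 and 515 CPM in PKM2FL/FL and 567, 547 and 531 CPM in PKM2ΔMAC libraries 1 to 3. The lowest PKM2ΔMAC library lay just above the highest PKM2FL/FL library, and the difference did not pass the test (log2 fold change 0.07, SE 0.04, 95% interval -0.02 to 0.17, adjusted p = 0.627 in edgeR; exact permutation p = 0.10). Zeb2 carried 91.6% to 93.1% of the TPM of the ZEB pair.

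**Figure D3:**
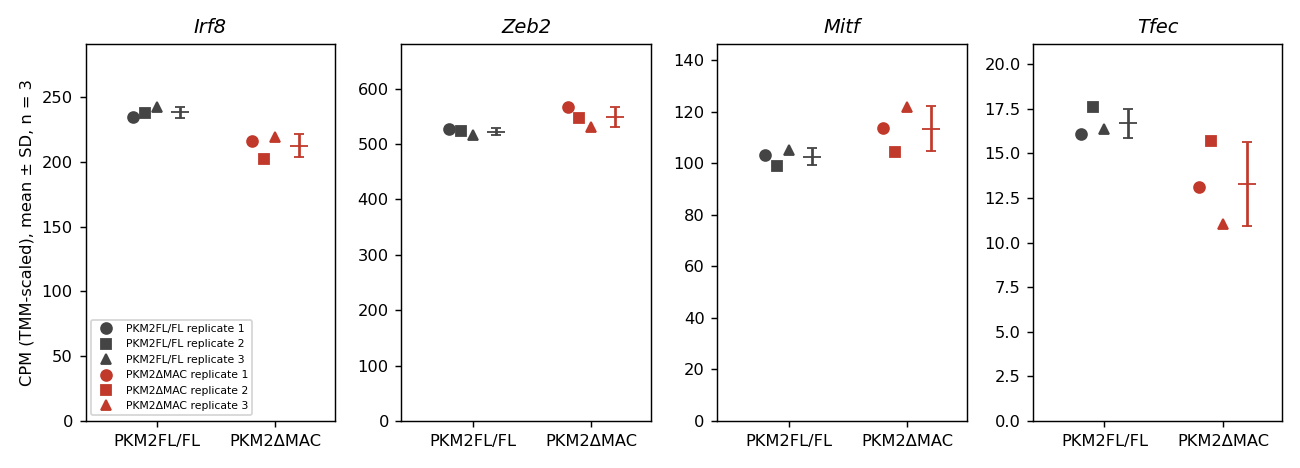
TMM-scaled CPM of Irf8, Zeb2, Mitf and Tfec in each library (symbols by replicate number) with the mean and SD of each genotype (n = 3), on axes that start at 0. Irf8 and Tfec lie lower in all 3 PKM2ΔMAC libraries, Zeb2 lies higher, and for Mitf the library PKM2ΔMAC 2 (105 CPM) falls among those of PKM2FL/FL.

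The MiT pair had fold changes of opposite sign, neither of which passed the test with all 6 libraries. Tfec (chr6:16833373-16898441, - strand) measured 16.1, 17.6 and 16.4 CPM in PKM2FL/FL and 13.1, 15.7 and 11.0 CPM in PKM2ΔMAC libraries 1 to 3. The genotypes did not overlap, with PKM2ΔMAC 2 closest to the controls. By the edgeR fold change, Tfec in PKM2ΔMAC was at 79.7% of its control level (log2 fold change -0.33, SE 0.12, 95% interval -0.61 to -0.05). The unadjusted p was 0.0262 and the adjusted p 0.426 in edgeR, and the exact permutation p was 0.10. Mitf (chr6:97807052-98021349, + strand) measured 103, 98.8 and 105 CPM in PKM2FL/FL and 114, 105 and 122 CPM in PKM2ΔMAC libraries 1 to 3. Only PKM2ΔMAC 2 overlapped the controls. With the replicate number as a block the edgeR adjusted p of Mitf was 0.261. By the edgeR fold change, Mitf in PKM2ΔMAC was at 110.6% of its control level (log2 fold change 0.15, SE 0.06, 95% interval 0.01 to 0.28). The unadjusted p was 0.0350 and the adjusted p 0.461 in edgeR, and the exact permutation p was 0.20. Without PKM2ΔMAC 2, 299 genes were called in place of 68, and both Tfec (log2 fold change -0.46, adjusted p = 0.0331) and Mitf (0.20, adjusted p = 0.0464) passed the edgeR test. Without PKM2ΔMAC 3 the fold changes were -0.21 and 0.09.

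Within the MiT family the share of Mitf in the TPM was 35.5%, 34.6% and 35.8% in PKM2FL/FL and 38.7%, 37.3% and 39.8% in PKM2ΔMAC libraries 1 to 3. These shares did not overlap, and differed by 3.33 percentage points (exact permutation p = 0.10, adjusted p = 0.75 over the shares of the 9 members). Tfec supplied 6.12%, 6.82% and 6.16% in PKM2FL/FL and 4.96%, 6.21% and 3.99% in PKM2ΔMAC, which overlap (-1.32 points, exact permutation p = 0.30, and -0.79 points without PKM2ΔMAC 3). The ratio of Mitf to Tfec, formed after the values were seen, was 5.79, 5.07 and 5.81 in PKM2FL/FL and 7.81, 6.01 and 9.99 in PKM2ΔMAC. Every PKM2ΔMAC ratio was above every PKM2FL/FL ratio, which restates the opposite signs of both fold changes and is not a further result. The summed TPM of the family was 164 ± 1.28 in PKM2FL/FL and 174 ± 3.28 in PKM2ΔMAC (SD, n = 3), on the TPM scale that is shifted as described above.

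**Figure D4:**
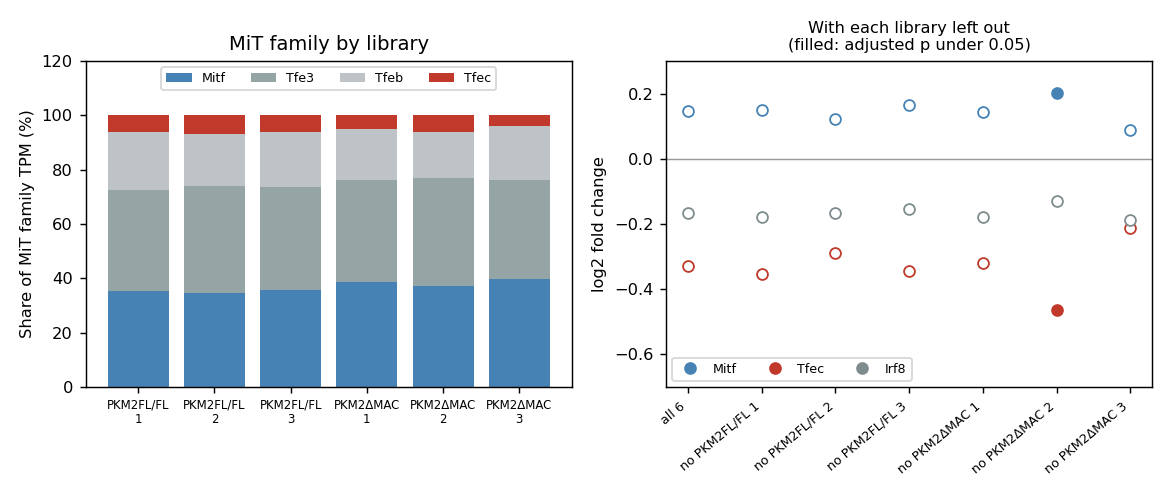
Left, share of Mitf, Tfe3, Tfeb and Tfec in the summed TPM of the MiT family in each library. Right, edgeR log2 fold change of Mitf, Tfec and Irf8 with all 6 libraries and with each left out in turn; filled points, which are those of Mitf (0.20) and Tfec (-0.46) without PKM2ΔMAC 2, have an adjusted p under 0.05.

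All 9 members had a larger coefficient of variation of CPM in PKM2ΔMAC than in PKM2FL/FL. This was also so for 68.2% of the 9092 genes with at least 10 CPM. The median coefficient of the members was 3.24% in PKM2FL/FL and 6.18% in PKM2ΔMAC, and that of all such genes 3.76% and 5.31%. PKM2ΔMAC 2 was the library farthest from the other two of its genotype for 6 of 9 members and for 51.9% of the genes. Tfec varied most over the 6 libraries, with a coefficient of 16.2%. The genes whose log2 CPM followed that of Tfec most closely were Eya2 (Pearson r 0.997), Ccn2 (0.994) and Myom1 (0.994), of 9091 candidates in 6 libraries that share genotype and library effects, and 245 candidates had an r over 0.9. Their log2 fold changes were -0.60, -0.42 and -0.60, and they were not called (edgeR adjusted p = 0.466, 0.449 and 0.416).

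Other transcription factors of the myeloid lineage were also described. Of 36 such genes, all kept by the filter, 0 were called in edgeR and 0 in DESeq2, 18 had a positive and 18 a negative fold change, and the median was 0.001 on the log2 scale. At an unadjusted p under 0.05 there were 3 higher (Cebpg, Spic and Cbfb) and 2 lower (Rxra and Elf1), against 9.83% of all genes. Without PKM2ΔMAC 2 edgeR called 1 of these factors, Spic, of 299 genes in all. Abundant genes among them were Irf5 (247 to 291 TPM), Klf6 (232 to 250 TPM) and Id2 (115 to 167 TPM). Of 22 factors of other blood lineages, 12 stayed under 1 TPM in all libraries, among them Pax5 of B cells, Gata3 of T cells and Klf1 of red cells. Others were present, such as Ikzf1 (61.8 to 80.7 TPM), Tcf3 (50.3 to 59.1 TPM), Tcf4 (20.8 to 24.2 TPM) and the B-lineage factor gene Ebf1 (13.5 to 20.8 TPM). Of the 16 kept, 0 were called in edgeR and 0 in DESeq2, and 1 had an unadjusted p under 0.05, Cebpe of granulocytes (log2 fold change 1.44).

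Genes known as targets of the members were then described as lists, of which some share genes. Over all genes, DESeq2 called 302 and edgeR without PKM2ΔMAC 2 called 299. Of 15 targets of PU.1, 2 rose in PKM2ΔMAC and 0 fell, against 0.412% of all genes called in either direction: Itgam, the integrin chain CD11b (log2 fold change 0.43, SE 0.04, edgeR adjusted p = 0.00272), and Msr1, the scavenger receptor A (0.39, SE 0.06, edgeR adjusted p = 0.0371). The list as a whole had 6 positive and 9 negative fold changes and a median of -0.04, and its most abundant genes Cd68, Tyrobp, Csf1r and Fcer1g had fold changes of -0.07, 0.005, -0.01 and -0.04. Of 12 targets of IRF8, 11 were kept and 0 called in edgeR or DESeq2, with a median of -0.03. There was 1 gene at an unadjusted p under 0.05 (Nf1, higher), against 9.83% of all genes in either direction. Without PKM2ΔMAC 2 edgeR called 1, the class II transactivator gene Ciita, as lower. With all 6 libraries the log2 fold change of Ciita was 0.03, since PKM2ΔMAC 2 held its highest value (39.6 TPM, against 23.1 to 24.5 TPM in PKM2FL/FL and 18.6 and 19.4 TPM in the other PKM2ΔMAC libraries). The cathepsin gene Ctss was the most abundant at 7835 to 11391 TPM. Of 9 targets of MAF, 0 were called in edgeR or DESeq2, 2 had a positive and 7 a negative fold change, and the median was -0.11. Its complement genes C1qa, C1qb and C1qc had fold changes of -0.11, -0.06 and -0.13. At an unadjusted p under 0.05 there were 2 lower genes (C1qc and Cd163), against 9.83% of all genes in either direction. Of these, edgeR called Cd163, a scavenger receptor for haemoglobin, without PKM2ΔMAC 2. Of 8 targets of KLF4 and ZEB2, 7 were kept and 0 called in edgeR. The 1 at an unadjusted p under 0.05 (Chil3, higher), against 9.83% of all genes in either direction, was called by DESeq2. Of 10 targets of the MiT factors, 0 were called in edgeR, with a median of -0.07. At an unadjusted p under 0.05 there were 1 higher gene and 2 lower, against 9.83% of all genes. The higher one was Dcstamp, which takes part in cell fusion (log2 fold change 1.64, SE 0.28, edgeR adjusted p = 0.0627). The lower ones were the autophagy receptor gene Sqstm1 and the lysosomal channel gene Mcoln1. Dcstamp was called by DESeq2, and by edgeR without PKM2ΔMAC 2. Gpnmb, the most abundant of these targets, was at 2980 to 4808 TPM.

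Among the target lists, that of C/EBP stood farthest from the median of all genes. Of 13 genes, 12 were kept, 9 had a positive and 3 a negative fold change, and the median was 0.46 on the log2 scale. Of these 1 rose in the edgeR test (Msr1, above), against 0.412% of all genes called in either direction. At an unadjusted p under 0.05, 3 were higher (Lcn2, Msr1 and Cebpe), against 9.83% of all genes in either direction. DESeq2 called 2 (Lcn2 and Msr1), of 302 genes it called in all. Lcn2, Mpo, Elane and Cebpe are genes of developing neutrophils. Of the neutrophil markers, 8 of 8 (S100a8, S100a9, Ngp, Ltf, Camp, Elane, Mpo and Mmp8) had a positive fold change. In edgeR 0 were called and 5 had an unadjusted p under 0.05, against 9.83% of all genes in either direction. DESeq2 called 5, of 302 genes it called in all, while edgeR without PKM2ΔMAC 2 called 0. Elane, Mpo and Mmp8 overlapped between genotypes. The summed TPM of the 8 was 68.6 to 168 in PKM2FL/FL and 323 to 659 in PKM2ΔMAC. Their part in the values of the C/EBP targets and of the members was not tested.

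Markers of other cells that could be in such a culture were measured as well. The 6 stromal markers summed to 2358 to 2639 TPM in PKM2FL/FL and 2500 to 3015 TPM in PKM2ΔMAC, with Col1a1 at 1040 to 1538 TPM. Of these, 0 were called in edgeR and 1 by DESeq2 (Pdgfrb, higher), which called 302 genes in all. Without PKM2ΔMAC 2 edgeR called 2 (Col1a1 and Pdgfrb, both higher), of 299 genes in all. The list had 4 positive and 2 negative fold changes, the negative ones being Col3a1 at -0.15 and Cxcl12 at -0.12. B cell markers summed to 132 to 150 TPM and 131 to 216 TPM, nearly all from Ighm, with Ms4a1 and Pax5 under 1 TPM. Cd79b was at 2.25 to 2.96 TPM in PKM2FL/FL and 3.25 to 4.30 TPM in PKM2ΔMAC (edgeR adjusted p = 0.466), and Ighm was called higher by edgeR without PKM2ΔMAC 2. T and NK cell markers summed to at most 1.73 TPM and dendritic cell markers to at most 3.74 TPM in any library. Mast cell and basophil markers summed to 8.73 to 14.9 TPM and 5.86 to 21.9 TPM, among them Cpa3 at 1.46 to 1.85 TPM and 0.430 to 0.901 TPM (edgeR adjusted p = 0.233), the 1 negative fold change beside 3 positive ones among the 4 kept, and erythroid markers to 4.72 to 6.40 TPM and 6.27 to 11.1 TPM. Several members, among them Zeb2, Maf, Klf4 and Cebpb, are also expressed by stromal cells, and the part of these cells in their levels was not tested.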

How the data were processed

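Raw counts of each gene symbol and TPM values were deposited by the authors for the same 6 libraries, made from total RNA with a SMARTER kit. Per the labels' processing notes, reads were handled with FastQC 0.12.1, Trim Galore 0.6.10, HISAT2 2.2.1, SAMtools 1.19.2 and Subread 2.0.6 on mm10. The annotation, strand setting and the test of the authors are not given in the sources used here. The members and the gene lists were chosen with earlier results of these data known, the lists from general knowledge.

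The deposited counts were compared with edgeR 4.0.16 (R 4.3.3, limma 3.58.1): filterByExpr kept 16516 genes, TMM factors were 0.980 to 1.04, the robust quasi-likelihood model had genotype as its only term, and p-values were adjusted by Benjamini-Hochberg over all genes kept, with calls at an adjusted p under 0.05. The functions were tested on simulated data. Exact permutation tests were 2-sided, on log2(CPM + 0.1) for single genes and on shares of TPM for families. Shares and levels were computed from the deposited TPM. Libraries held at least 49957449 counts, and the parts of counting error and of the spread between libraries in the precision were not separated. Genes named were all members, the gene or genes of the lists with an adjusted p under 0.05, up to 4 genes of highest TPM per list, the 3 genes most like the most variable member and genes overlapping a member. Other genes of the lists are named where a count is 5 or fewer or a marker is described, chosen after their values were seen. Some genes of the lists, and the share of Maf in its family, are not reported here.

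Deviations from the genotype mean were correlated between samples with the same replicate number (0.258, 0.459 and 0.133 for numbers 1 to 3 in the titles). Samples with different numbers were not compared in this way. The labels do not say whether the number marks anything shared between genotypes. A fit with the number as a block was among the alternatives. The others were DESeq2 1.42.0, RLE and upper-quartile factors, other filters on low counts, non-robust estimation, each library left out, limma-trend on log2 TPM with a pseudocount of 1 or 0.1, shares of counts in place of TPM and overlap in TPM.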

Additional observations from a re-analysis of the deposited data

How the results depend on the processing

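No member was called in 15 of the 16 other settings tried per member, the exception being the fit without PKM2ΔMAC replicate 2, where 2 were called (Tfec and Mitf), so that the number of members called was 0 to 2 over the fits that left out 1 library. Irf8, Cebpb and Tfec stayed lower and Zeb2 and Mitf stayed higher in PKM2ΔMAC in all 16, with log2 fold changes of Irf8 between -0.19 and -0.09 (adjusted p between 0.117 and 0.685). Leaving out 1 library moved Tfec between -0.46 and -0.21, Mitf between 0.090 and 0.20, Cebpa between -0.081 and -0.0011, Cebpb between -0.14 and -0.027, Zeb2 between 0.047 and 0.093, Spi1 between -0.026 and 0.044, Maf between -0.045 and 0.046 and Klf4 between -0.071 and 0.10, the last 3 with a change of sign. Maf was also below 0 with DESeq2 (-3.19e-05), RLE factors (-4.12e-05) and no filter on low counts (-0.00105), and Cebpa was at 0.018 in all 3 limma-trend fits on TPM. The replicate block gave -0.0045 for Klf4, 0 members called and 82 genes called, and it changed no other direction or call of a member. The number of genes called was 302 with DESeq2, 120 with no filter, 41, 34 and 36 with limma-trend on log2(TPM + 1), on log2(TPM + 0.1) and on log2(TPM + 1) without a filter, and 22 to 299 with 1 library left out; the cause was not tested. Of the lists, added to these settings after seeing the data, DESeq2 called 2 of the C/EBP targets, 1 of the KLF4 and ZEB2 targets, 1 of the MiT targets, 3 macrophage markers (Adgre1 and Itgam higher, Lyz2 lower), 5 neutrophil markers and 1 stromal marker, and edgeR without PKM2ΔMAC replicate 2 called 1 of the other myeloid factors, 1 of the IRF8 targets, 1 of the MAF targets, 1 of the MiT targets, 2 LPS and IFN-γ response genes (Acod1 and Ciita, both lower, although Ciita was at 0.03 with all libraries), 4 macrophage markers (the same and Cd163, lower), 1 B cell marker and 2 stromal markers. In TPM, 2 members were higher without overlap (Zeb2 and Mitf, against 19% of all genes) and 1 lower (Irf8, against 3.15%). By CPM, 3 members kept their rank. The difference in family share, with 1 library left out, ranged from -1.66 to 0.016 percentage points for Cebpa, from -0.10 to 0.42 for Klf4, from -3.10 to -1.32 for Irf8, from 2.72 to 3.99 for Mitf and from -1.90 to -0.79 for Tfec. With 3 libraries per genotype, differences as small as those of Spi1, Maf and Klf4 have no stable sign.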
